A study of Mus musculus with 15 samples.

Results

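Serpins, cystatins and TIMPs are 3 families of endogenous protease inhibitors, and the mouse genes described here are those whose symbols in the RNA-seq table of preSertoli cells read Serpin with a letter and number, Cst with a number, a or b, or Timp 1 to 4. The rule used symbols only and no measured value. It found 73 of the 27697 symbols in the table: 58 serpins, 11 cystatins and 4 TIMPs. PreSertoli cells are the fetal form of the Sertoli cell, the somatic cell that encloses the germ cells in the testis cords. The RNA came from cells sorted by flow cytometry from fetal testes at E15.5 of C57BL/6J x CD-1 (F1) mice. About 165 embryos gave 3 pools, each of about 1000000 cells, and the labels call these pools independent biological replicates. All 3 libraries belong to this 1 group, so there is no contrast to test, and the values below are a description with their spread over libraries. The series also holds 8 DNase-seq libraries and H3K27ac ChIP-seq, which were not used here because gene positions in their genome build, mm9, were not at hand.

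Serpins trap serine proteases by offering a bait loop that the enzyme cuts and cannot release, although some family members have lost this activity and serve as chaperones or hormone carriers. Cystatins block papain-like cysteine proteases, chiefly the lysosomal cathepsins, and a branch of cystatin-related genes expressed in the male reproductive tract lacks parts of the inhibitory site. TIMPs bind the catalytic site of matrix metalloproteases and of some ADAM and ADAMTS enzymes. In the testis these inhibitors are known for control of the matrix and of junctions around the cords. Testatin, the product of Cst9, was described as a cystatin-related gene of the fetal testis, and Serpine2 encodes protease nexin-1, an inhibitor of thrombin, urokinase and tissue plasminogen activator.

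The libraries numbered 1, 2 and 3 held 47766422, 56007688 and 51725096 expected counts. Levels are CPM, the counts of a gene scaled to a library total of 1000000 counts. CPM is not divided by transcript length, and transcript lengths were not at hand, so the order of genes given here is an order of reads and not of transcripts. A gene counted as expressed where each of the 3 libraries reached 1 CPM. The label of preSertoli cells was checked against 12 markers, which include Serpine2 and Cst9 themselves. All were expressed, among them Amh, Sox9, Dhh and Dmrt1. Markers of other cell types passed this threshold as well. All 6 fetal Leydig cell markers were expressed, with summed levels of 2157, 2508 and 1747 CPM in libraries 1, 2 and 3, although one of them, Nr5a1, is also a gene of Sertoli cells. All 6 stroma markers (summed 215 to 390 CPM), 6 of 7 germ cell markers (43.6 to 60.6 CPM), 4 of 6 endothelial markers (31.2 to 33.5 CPM), 2 of 3 measured myoid markers (23.4 to 30.8 CPM) and 1 of 4 measured blood and macrophage markers (3.44 to 4.37 CPM) passed the same threshold, as did 2 of 4 measured mesonephric and 2 of 5 granulosa markers. None of the measured markers was at 0. In bulk RNA, few cells with much of a transcript and many cells with little of it cannot be told apart.

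Of the 73 members, 25 were expressed (34.2%), against 47.1% of all symbols in the table. The median member stood at 0.110 CPM, against 0.712 CPM for all symbols. At the top, 7 members reached 100 CPM in all 3 libraries (9.59%), a share close to the 8.53% of all symbols. The cystatins were expressed in 7 of 11 cases, the TIMPs in 3 of 4 and the serpins in 15 of 58. The 48 members that were not expressed summed to 4.33 ± 0.361 CPM (SD, n = 3, as for all values with ± below), which is 0.103% of all reads on the 73 genes.

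**Figure D1:**
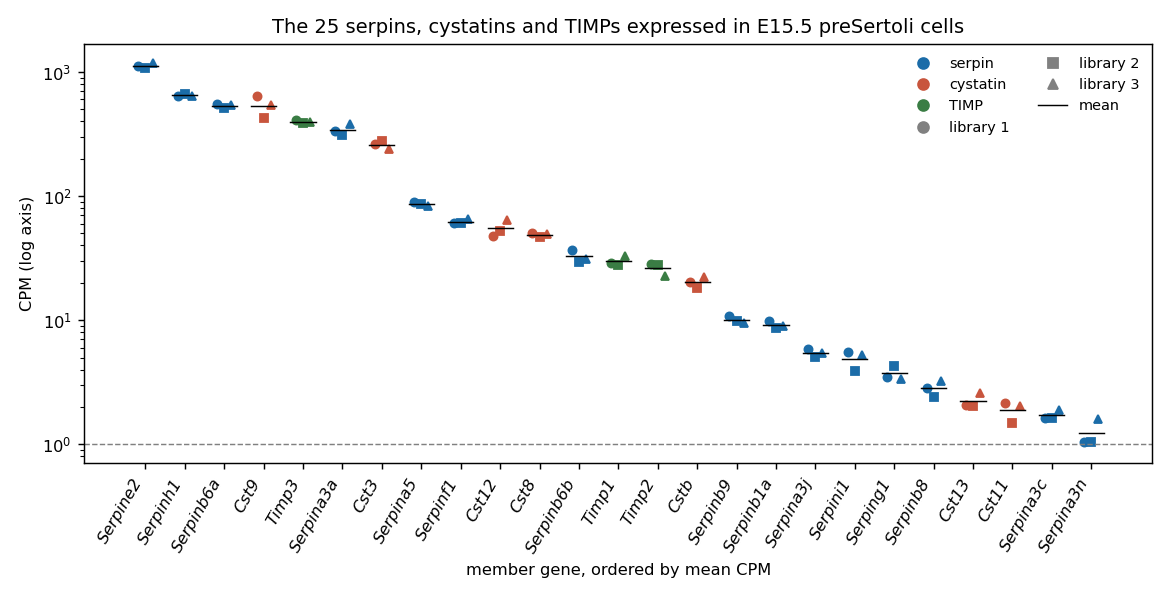
Level of the 25 expressed members in CPM (log axis) in each of the 3 libraries of E15.5 preSertoli cells, with a bar at the mean and a dashed line at 1 CPM. The first 7 genes, from Serpine2 to Cst3, lie at 240.0 CPM or more in every library and the rest at 89.7 CPM or less.

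Promoter sequences of 6 members are shown because they set the read-rich genes beside relatives under the threshold. Each is the 250 bases before the RefSeq start, 5′ to 3′ on the gene's strand, from GRCm38.p6, in lower case with CpG dinucleotides in capitals. Serpine2 (chr1:79858666-79858915 on the minus strand), Timp3 (chr10:86300162-86300411 on the plus strand) and Cst9 (chr2:148834897-148835146 on the plus strand) lead their families. Cst10 (chr2:149404999-149405248 on the plus strand) is the cystatin with no count. Serpina3a (chr12:104112474-104112723 on the plus strand) and Serpina3b (chr12:104127746-104127995 on the plus strand) are neighbours on chromosome 12.
Serpine2: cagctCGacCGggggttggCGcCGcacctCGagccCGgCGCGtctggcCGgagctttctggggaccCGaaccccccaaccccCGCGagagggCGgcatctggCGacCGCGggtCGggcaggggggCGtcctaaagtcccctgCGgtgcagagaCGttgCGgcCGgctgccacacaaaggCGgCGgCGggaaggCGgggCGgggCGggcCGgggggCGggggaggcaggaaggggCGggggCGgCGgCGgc
Timp3: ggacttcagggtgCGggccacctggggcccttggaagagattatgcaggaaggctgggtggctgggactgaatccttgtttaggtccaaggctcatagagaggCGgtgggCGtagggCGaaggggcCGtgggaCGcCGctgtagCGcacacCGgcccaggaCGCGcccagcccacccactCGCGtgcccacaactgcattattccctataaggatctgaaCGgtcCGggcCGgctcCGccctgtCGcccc
Cst9: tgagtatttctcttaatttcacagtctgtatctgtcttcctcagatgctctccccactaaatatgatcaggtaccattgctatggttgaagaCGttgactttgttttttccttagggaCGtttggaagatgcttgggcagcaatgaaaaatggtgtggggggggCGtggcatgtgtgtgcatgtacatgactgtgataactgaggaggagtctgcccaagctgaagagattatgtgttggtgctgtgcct
Cst10: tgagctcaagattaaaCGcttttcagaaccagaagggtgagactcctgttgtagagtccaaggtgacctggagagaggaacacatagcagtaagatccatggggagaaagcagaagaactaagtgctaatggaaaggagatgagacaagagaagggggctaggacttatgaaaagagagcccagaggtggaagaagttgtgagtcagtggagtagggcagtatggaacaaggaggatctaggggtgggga
Serpina3a: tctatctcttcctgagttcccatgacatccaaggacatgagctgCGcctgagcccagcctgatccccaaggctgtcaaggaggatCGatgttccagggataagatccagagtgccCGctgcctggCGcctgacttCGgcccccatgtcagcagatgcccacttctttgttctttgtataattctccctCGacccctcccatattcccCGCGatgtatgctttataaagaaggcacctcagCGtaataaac
Serpina3b: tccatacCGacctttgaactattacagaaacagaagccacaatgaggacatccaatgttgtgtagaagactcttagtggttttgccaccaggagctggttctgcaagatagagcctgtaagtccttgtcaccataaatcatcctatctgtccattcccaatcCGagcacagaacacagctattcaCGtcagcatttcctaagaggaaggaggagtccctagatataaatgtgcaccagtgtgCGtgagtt

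The Serpine2 promoter held 34 CpG dinucleotides and that of Timp3 held 18. The Cst9 promoter held 3, and that of Cst10 held 1. Serpina3a had 9 and its neighbour Serpina3b had 4. Low numbers were common among cystatins and serpins alike. The median was 2 over the 7 cystatins and 2 over the 49 serpins that have a promoter in RefSeq, against 12 over the 4 TIMPs. Among the cystatins, Cst3 had 8. The leading serpin and the leading TIMP start in CpG-dense sequence.

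Promoters were found in RefSeq by symbol for 60 members, 21 of them expressed, and where a gene had several starts the first listed was taken. Values over all promoters, here and for the motifs below, use every listed start and not only the first of each gene. A promoter was called CpG-rich at a GC content of at least 50% and a ratio of observed to expected CpG of at least 0.6. This held for 4 of 60 members (6.67%), against 31.0% of all 32841 promoters in the table. The 4 were Serpine2, Serpinb6a, Timp3 and Timp2, all expressed, so that 4 of 21 expressed members and 0 of 39 silent or low members had such a promoter. The median number of CpG dinucleotides was 3 in expressed members and 2 in the others, against 6 over all promoters. The difference lay in the members of the highest levels, where the 7 genes of 100 CPM or more had a median of 11. Among these 7, Cst9 had the lowest number. By the rule above, 3 of the 7 (42.9%) were CpG-rich, namely Serpine2, Serpinb6a and Timp3, while Serpinh1, Serpina3a, Cst3 and Cst9 were not.

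**Figure D2:**
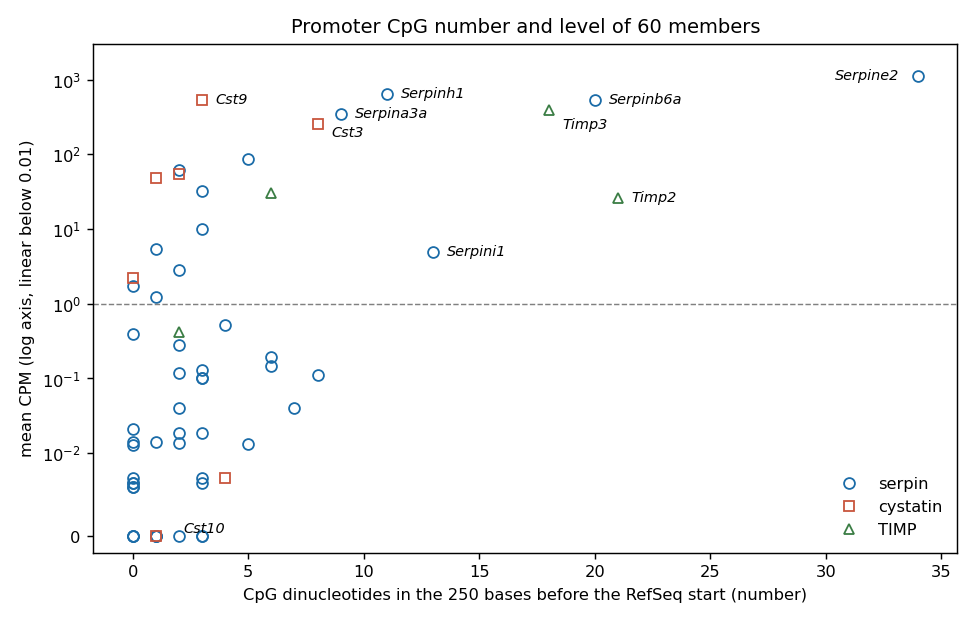
Number of CpG dinucleotides in the 250 bases before the start (x axis) against mean CPM (y axis, log, linear below 0.01) for the 60 members with a promoter in RefSeq, 1 symbol per gene. Every member with 9 or more CpG dinucleotides lies above the dashed line at 1 CPM, and Cst9 stands at 534 CPM with 3.

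Short motifs were searched in the same windows on both strands. The letters GGGCGG, the GC box, were found in 8 of 21 expressed members (38.1%) and in 3 of 39 others (7.69%), against 32.7% of all promoters. The letters TATAAA were found in 3 of 21 expressed members (14.3%) and in 11 of 39 others (28.2%), against 12.4% of all promoters. Those 11 include Serpinb2, Serpinb7, Serpinb12 and Serpinb3a to Serpinb3d, which are relatives in 1 gene cluster on chromosome 1. Serpina3a and Serpina3b both held TATAAA. The SOX core letters AACAAT were found in 2 of 21 expressed members and 4 of 39 others, the GATA letters AGATAA in 1 and 6, and the NR5A1 half-site letters AAGGTCA in 2 and 6. Over all promoters these stood at 9.43%, 9.99% and 4.08%. None of these 3 motifs was in the promoters of the 7 members of 100 CPM or more, which says only that these letters are not in this window. The other members with AAGGTCA include the neighbours Serpinb9d to Serpinb9g. Promoters of such relatives are not independent, so these counts do not measure a difference between expressed and other members.

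Among the serpins, Serpine2 took the most reads. It had 1114, 1065 and 1177 CPM in libraries 1, 2 and 3, a mean of 1119 ± 56.1 CPM, and ranked 45, 48 and 41 among all symbols. The 3 libraries lay within 1.11 times of each other, and the coefficient of variation of 5.02% was below the median of 5.49% over the 2362 symbols of 100 CPM or more. Serpine2 held 39.0% ± 0.673 of all serpin reads. Serpine3, of the same letter group, had under 3 counts in every library.

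Serpinh1, the collagen chaperone HSP47 of the endoplasmic reticulum, which has no inhibitory activity, came next with 641, 666 and 640 CPM. Its coefficient of variation of 2.25% was below that of all but 10.2% of those 2362 symbols. Serpinf1, pigment epithelium-derived factor, another member without inhibitory activity, had 60.2, 60.2 and 65.2 CPM. Serpine2 and Serpinh1 together made up 61.6% ± 0.753 of serpin reads.

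The clade A serpins, secreted proteins made chiefly by the liver, had 5 expressed members of 21. Serpina3a, a mouse relative of alpha-1-antichymotrypsin, had 335, 313 and 378 CPM, highest in library 3. Serpina5, protein C inhibitor, known from male reproductive organs, had 89.7, 85.6 and 83.0 CPM. Serpina5 varied little between libraries, with no library more than 1.08 times another. Serpina3j had 5.88, 5.09 and 5.48 CPM, and Serpina3c had 1.62, 1.63 and 1.89 CPM. Serpina3n, an acute-phase gene, was the lowest of all expressed members at 1.05, 1.04 and 1.60 CPM. Several plasma serpins known from the liver did not reach the threshold. None of the 5 measured Serpina1 genes (alpha-1-antitrypsin) was expressed, with a sum of 0.232 ± 0.0338 CPM, and Serpina1a was not measured. Serpinc1 (antithrombin) stood at 0.119 ± 0.0699 CPM and Serpinf2 (alpha-2-antiplasmin) at 0.129 ± 0.00580 CPM. Serpina6, the corticosteroid carrier, had 0, 0.0714 and 0.0387 CPM in libraries 1, 2 and 3. Serpina7, the thyroxine carrier, Serpina10 and Serpind1 (heparin cofactor II) had under 3 counts in every library.

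The clade B serpins, which lack a signal peptide and act mainly inside cells, had 5 expressed members of 26. Serpinb6a, the mouse counterpart of a cytosolic inhibitor of cathepsin G in human, led with 552, 509 and 544 CPM. Serpinb6b had 37.0, 29.6 and 31.2 CPM. Serpinb9, an inhibitor of granzyme B, had 10.8, 9.94 and 9.41 CPM, and Serpinb1a, an inhibitor of neutrophil elastase, had 9.79, 8.65 and 9.04 CPM. Serpinb8 had 2.82, 2.41 and 3.26 CPM. The remaining 6 measured Serpinb9 genes summed to 0.0467 CPM, with 4 of them at no count. None of the 4 Serpinb3 genes was expressed, and 3 of them had no count. Serpinb1b (0.280 CPM) and Serpinb6c (0.110 CPM), relatives of expressed genes, had counts in every library below the threshold, none of them whole numbers. Serpinb5, known as maspin, an epithelial serpin, stood at 0.192 ± 0.0229 CPM. Of the small clades, Serpini1, neuroserpin, an inhibitor of tissue plasminogen activator in neurons, had 5.51, 3.89 and 5.28 CPM, and Serping1, the C1 inhibitor of complement, had 3.52, 4.30 and 3.36 CPM.

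Among the cystatins, Cst9 took the most reads and, of the 7 expressed cystatins, varied the most. It had 633, 424 and 544 CPM in libraries 1, 2 and 3, and its rank among all symbols was 146, 323 and 203. Library 2 was lowest and library 1 had 1.49 times its level. The coefficient of variation of 19.7% exceeded that of 98.9% of the symbols of 100 CPM or more. Cst3, cystatin C, the main secreted inhibitor of cysteine cathepsins, had 260.5, 275 and 240.0 CPM, and it was the second cystatin in every library. Cst9 held 57.6% ± 5.41 of cystatin reads, and Cst9 and Cst3 together 86.0%.

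Levels of other genes that differed between the same libraries stand beside the spread of Cst9. Germ cell markers had the same order of libraries, with summed levels of 60.6, 43.6 and 50.1 CPM in libraries 1, 2 and 3. The order was not particular to them. The members Serpinb6a and Timp3 had it too, as did the preSertoli marker Gatm, with 831, 703 and 771 CPM. Summed fetal Leydig markers were highest in library 2, as was Amh, with 2167, 2660 and 1319 CPM. Of the Leydig markers, Nr5a1 was instead highest in library 3, with 482, 518 and 532 CPM. Stroma markers had summed levels of 330.1, 390 and 215 CPM. The part of these in the spread of Cst9 was not tested. Timp2, with 28.3, 27.7 and 22.8 CPM, and Cst3 were lowest in library 3, as were the summed stroma and Leydig markers. The preSertoli markers Amh, Sox9 (278, 283 and 217 CPM), Sox8 and Dhh were lowest there too. Other preSertoli markers, Clu, Gata4, Aard and Dmrt1, were highest there. A link of Timp2 or Cst3 to any of these was not tested. Serpina3a, Serpine2 and Cst12 were instead highest in library 3.

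**Figure D3:**
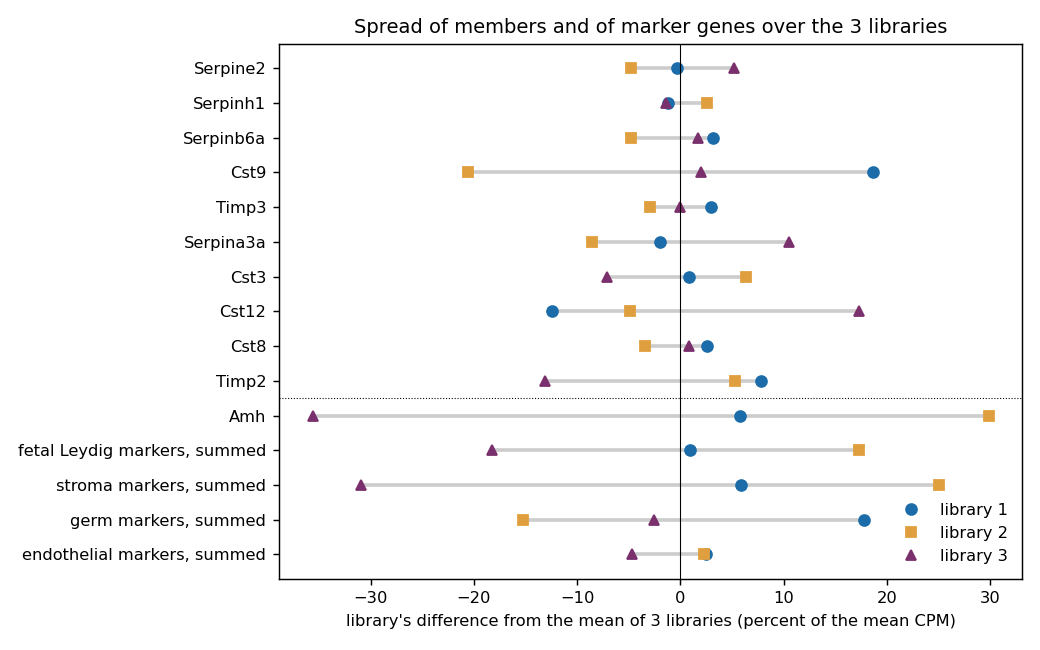
Difference of each library from the mean of the 3 libraries, in percent of the mean CPM, for 10 members (above the dotted line) and for Amh and 4 summed marker lists (below it). Cst9 runs between 424 CPM in library 2 and 633 CPM in library 1, while Serpinh1 and Timp3 lie close to 0 in all libraries.

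The remaining expressed cystatins were relatives of Cst9 and the intracellular inhibitor Cstb. Cst12, a cystatin-related gene, had 48.0, 52.2 and 64.3 CPM. Cst8, known as CRES, a cystatin-related gene of epididymis and spermatogenic cells, had 50.1, 47.2 and 49.3 CPM, and the ranges of Cst12 and Cst8 overlapped. Cst13 had 2.09, 2.04 and 2.59 CPM and Cst11 had 2.14, 1.48 and 2.03 CPM, and their ranges overlapped as well. Cstb, stefin B, a cytosolic inhibitor of cathepsins, had 20.3, 18.3 and 22.5 CPM, whereas Csta, stefin A, had under 3 counts in every library. Cst6 (cystatin E/M) stood at 0.0711 ± 0.0129 CPM. Cst7, cystatin F, a gene of white blood cells, had a count in library 1 only, and Cst10 had none.

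Among the TIMPs, Timp3 took the most reads. Timp3, which binds to the extracellular matrix and also inhibits ADAM17, had 408, 385 and 396 CPM and held 87.5% ± 0.232 of TIMP reads. Timp1 had 28.7, 28.1 and 33.0 CPM, and its range overlapped that of Timp2, which takes part in activation of the protease Mmp2. Timp4 stood at 0.356, 0.518 and 0.367 CPM and was not expressed. The order with Timp3 far above Timp1 and Timp2 and with Timp4 last was the same in all 3 libraries. Timp1, Timp3 and Timp4 overlap genes of the synapsin family in RefSeq. This is an overlap of whole gene spans, and whether exons overlap, so that reads could be shared, was not examined. Timp1 and Timp4 had whole counts in every library, and Timp3 did not. Syn3, which overlaps Timp3, stood at 5.84 ± 0.365 CPM, Syn1, which overlaps Timp1, at 1.64 ± 0.279 CPM, and Syn2, which overlaps Timp4, at 0.912 ± 0.118 CPM. Timp4 thus stood below the gene it overlaps. Serpinb6a overlaps Nqo2 (36.9 ± 1.95 CPM) and Ripk1 (60.8 ± 2.71 CPM), both far below its own level.

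Of the 24 pairs of neighbours in the order of the 25 expressed members, 13 had ranges over the 3 libraries that lay apart and 11 overlapped. Serpinb6a and Cst9 overlapped, as did Serpinf1 and Cst12, so their order is not settled by these libraries. A step of 3.00 times in mean level lay between Cst3, whose lowest library had 240.0 CPM, and Serpina5, whose highest had 89.7 CPM. At the threshold, Serpina3n was the lowest expressed member with a mean of 1.23 CPM, and below the threshold Serpina3b had a mean of 0.516 CPM.

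Most members lie in gene clusters, and in these the read-rich genes stood beside genes under the threshold. By the order of genes in RefSeq, 53 members fell into 4 clusters on chromosomes 1, 2, 12 and 13, and 16 of these 53 were expressed. Of the 20 members outside clusters, 9 were expressed, among them Serpine2, Serpinh1 and all 3 expressed TIMPs. Genes that RefSeq places in the clusters but that have no row under the rule, such as Serpina1a, Serpina3g, Serpina3m and Serpinb9h, were not analysed here. The cystatin cluster on chromosome 2 was the one in which nearly all members were expressed, 6 of 7. Its order was Cst11, Cst12, Cst8, Cst13, Cst9, Cst3 and Cst10, with levels of 1.88, 54.8, 48.9, 2.24, 534, 258 and 0 CPM. High and low genes thus lay side by side, and Cst13, at 2.24 CPM, lay between Cst8 and Cst9 with no other coding gene in between.

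The clade A cluster on chromosome 12 held 20 members, of which 5 were expressed. Most of its reads lay in an adjacent pair, Serpina5 and Serpina3a, at 86.1 ± 3.43 and 342 ± 33.1 CPM. The next gene before the pair, Serpina12, stood at 0.149 ± 0.0168 CPM, and the next after it, Serpina3b, at 0.516 ± 0.104 CPM. Serpina3a held 97.3% ± 0.126 of the reads of the 9 measured Serpina3 genes. In global alignment, its promoter was identical to those of the 6 other aligned Serpina3 promoters at 47.2% to 50.9% of columns. Serpina3b, Serpina3c, Serpina3f, Serpina3i and Serpina3n were identical to each other at 62.6% to 90.5%. The promoters of 6 cystatins, aligned in the same way, stood at 45.3% to 53.8% with each other, a range that holds the values of Serpina3a. The Serpina3j promoter stood at 49.1% to 50.9% with the rest of its group. Those of Serpinb6a, Serpinb6b and Serpinb6c stood at 46.3% to 48.4% with each other. Unrelated promoters were not aligned, so values near 50% cannot be read as conservation.

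The clade B cluster on chromosome 13 held 15 members and had 4 expressed: Serpinb1a at its first place, Serpinb6b and Serpinb9 side by side, and Serpinb6a at its last. The genes between Serpinb9 and Serpinb6a in this order include Serpinb9d, Serpinb9e, Serpinb9f and Serpinb9g without a count, and Serpinb6c, next to Serpinb6a, at 0.110 ± 0.00543 CPM. The clade B cluster on chromosome 1 held 11 members, of which Serpinb8, the last in order, was the single expressed one. Serpinb3a, Serpinb3b and Serpinb3d had no count, and the other 7 stood below 0.2 CPM.

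**Figure D4:**
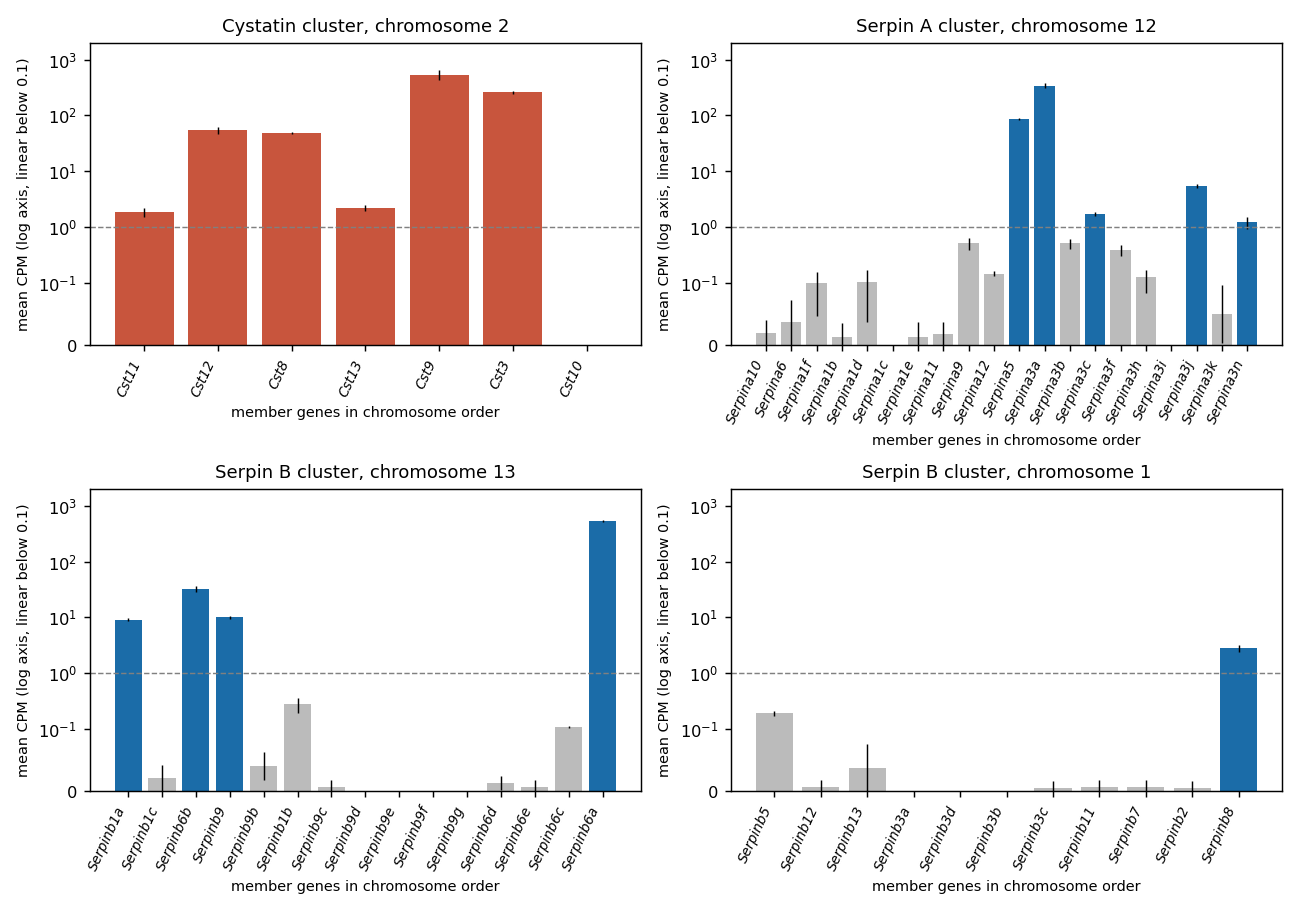
Mean CPM (y axis, log, linear below 0.1) of the members of 4 gene clusters in chromosome order, with error bars of 1 SD over 3 libraries, coloured where expressed and grey where not. Expressed genes fill the cystatin cluster except for Cst10, while a few genes carry the reads of each serpin cluster.

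Paralogs can share reads, and expected counts that are not whole numbers show where the authors' counting split reads between genes. All 7 expressed cystatins had whole counts in every library, within 0.005 of a count, as did 6 of 15 expressed serpins, Timp1 and Timp2. The 10 expressed members without whole counts were Serpinb6a, Timp3, Serpina3a, Serpinb6b, Serpinb9, Serpinb1a, Serpina3j, Serpinb8, Serpina3c and Serpina3n. Whole counts were thus seen in 15 of 25 expressed members, close to the 59.9% of all expressed symbols. The low values of Serpina3c, Serpina3n and Serpina3j are uncertain for this reason, as they lie beside the far larger count of Serpina3a. The same holds for Serpinb6b and Serpinb6c, relatives of Serpinb6a, and for Serpinb1b, a relative of Serpinb1a. None of these had a whole count in any library.

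The 48 members that were not expressed fell into grades. Of these, 14 had a mean of 0.102 CPM or more, among them, in falling order, Serpina3b, Serpina9, Timp4, Serpina3f, Serpinb1b, Serpinb5, Serpina12, Serpinf2, Serpina3h, Serpinc1, Serpinb6c, Serpina1d and Serpina1f. Another 5 lay below 0.1 CPM with 3 or more counts in some library: Cst6, Serpina3k, Serpinb9b, Serpinb13 and Serpina6. In 19 members there was a count but no library reached 3: Serpine3, Csta, Serpinb1c, Serpina10, Serpina11, Serpind1, Serpina7, Serpini2, Serpina1e, Serpina1b, Serpinb6d, Cst7, Serpinb12, Serpinb6e, Serpinb11, Serpinb7, Serpinb9c, Serpinb2 and Serpinb3c. The last 10 had no count in any library: Cst10, Serpina1c, Serpina3i, Serpinb3a, Serpinb3b, Serpinb3d, Serpinb9d, Serpinb9e, Serpinb9f and Serpinb9g. A count of 0 allows up to 3 counts, which is 0.0628, 0.0536 and 0.0580 CPM in libraries 1, 2 and 3 and 0.0193 CPM over the 155499206 counts of all libraries; these limits cover counting error only. Any count at all was seen for 63 of the 73 members (86.3%), against 74.1% of all symbols.

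The proteases that these families meet were read from lists chosen by enzyme class. A place in a list, Prss35 included, shows neither that the product is an active enzyme nor that a member inhibits it. Of 23 serine proteases and receptors, 11 were expressed (47.8%, against 47.1% of all symbols). The most reads fell on Prss35, of the trypsin family (580.0 ± 27.8 CPM), Lrp1, an endocytic receptor that clears serpin complexes (298 ± 59.4 CPM), and Masp1, a protease of the lectin pathway of complement (140.1 ± 6.35 CPM). Of the known targets of Serpine2, named here after their values were seen, Plat (tissue plasminogen activator) stood at 64.7 ± 1.97 CPM and Plau (urokinase) at 2.23 ± 0.0738 CPM. F2r, the thrombin receptor and not itself such a target, was also named after its value was seen and stood at 70.7 ± 3.86 CPM. The precursors of thrombin (F2) and plasmin (Plg) had no more than 1 count in any library. The pools thus held RNA for activators and a receptor, while RNA for the plasma zymogens was near 0. Which cells of the pools this RNA came from cannot be told.

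Cysteine proteases were expressed in 9 of 11 cases (81.8%), with a summed level of 2874 ± 189 CPM, against 47.1% of all symbols expressed. Ctsl (cathepsin L) led with 2248, 1958 and 2297 CPM, followed by Ctsb (336 ± 12.5 CPM) and the asparaginyl protease Lgmn (138 ± 10.3 CPM). Ctsl was lowest in library 2, as was Cst9, but so were Serpine2, Serpinb6a, Timp3 and Serpina3a. Cst3 was highest there, and a link between Ctsl and Cst9 was not tested. Ctss, a cathepsin of antigen-presenting cells, named after its value was seen, stood at 0.719 ± 0.0277 CPM. Among 31 measured metalloproteases, 21 were expressed (67.7%), with a sum of 2164 ± 25.9 CPM. Adamts16 (403 ± 9.37 CPM), Mmp11, stromelysin 3 (367 ± 18.2 CPM), and Adamts9 (334 ± 9.81 CPM) had the most reads. Mmp2 and its activator Mmp14, named as partners of Timp2 after their values were seen, stood at 241 ± 15.9 and 94.1 ± 1.54 CPM. Mmp3 and Mmp7 were the 2 of this list with no count.

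**Figure D5:**
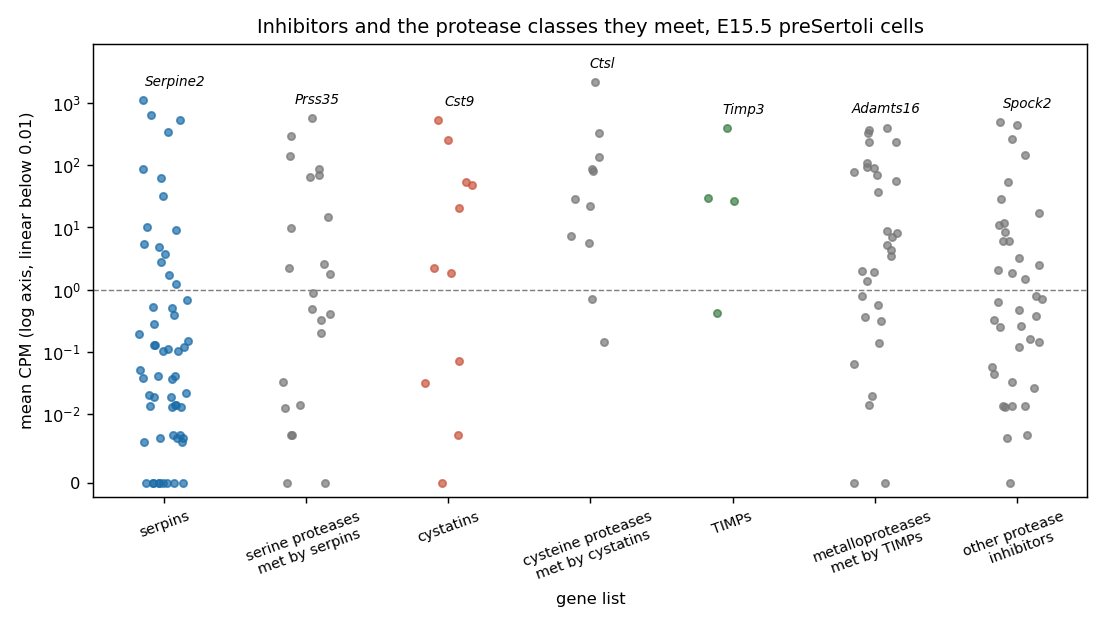
Mean CPM (y axis, log, linear below 0.01) of all members by family (coloured) beside 3 lists of proteases and a list of other protease inhibitors (grey), 1 point per gene, with the gene of most reads named in each. The cystatins and the cysteine proteases have most of their points above the dashed line at 1 CPM, and most serpins lie below it.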

How the data were processed

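RNA-seq of 3 pools of sorted E15.5 preSertoli cells was analysed. Per the labels' protocols, poly-A libraries made with a standard TruSeq V2 kit were sequenced as single reads of 50 bp in 1 lane; whether counting used strand is not given in the sources used here. Per the submitters' processing notes, CASAVA 1.8.2, Bowtie 0.12.7 and RSEM 1.2.0 were used with mm9; the gene annotation is not given in the sources used here. Per the file headers, the deposited values are square roots. From the values, each square was a whole number of hundredths of 1 count (100% of the 11306 to 11541 low values checked per library, within 0.05 hundredths), so expected counts were recovered by squaring and dividing by the value of 1 count, a step tested on simulated data. There is 1 RNA-seq group, so no test was made and no p-value is given.

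CPM used the total of all 28427 rows. Where a symbol had several rows, the row of highest mean was kept; each member had 1 row. The columns carry a number only, and libraries are called 1, 2 and 3 after them. Promoters came from RefSeq (GRCm38.p6), matched by symbol; gene order came from RefSeq too (72 of 73 members matched), with clusters split at gaps above 1 Mb and kept at 3 or more members. Promoters were aligned with Biopython 1.88; other steps used Python 3.11.15 with pandas 2.3.3 and numpy 2.4.6. Every expressed member was named, with low members of at least 0.1 CPM or in a cluster with an expressed member; of each protease list the 3 highest were named, and others only where said; 1 low member is not reported here. Members and lists were chosen with earlier results of these data known. Protein sequences, planned for the leading members, were not used here, nor were the DNase-seq and H3K27ac lists. Alternatives covered thresholds, scaling, repeated rows and each library left out.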

Additional observations from a re-analysis of the deposited data

How the results depend on the processing

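The number of expressed members was 25 under TMM and median-of-ratios scaling (formulas recomputed in Python), with a mean in place of all libraries, and without each library in turn. Summing repeated rows could not change it, since each member had 1 row. It was 26 at 0.5 CPM and 18 at 5 CPM, where Cst11, Cst13, Serpina3c, Serpina3n, Serpinb8, Serping1 and Serpini1 dropped out. Without library 3 the levels of the 25 changed by -14.9% to 6.56%, and with the median on the deposited scale by -14.6% to 8.00%; with 3 libraries such changes stay under 1 SD by construction. Members at 0 numbered 29 when under 3 counts in every library sufficed, and 13 to 16 without 1 library, where fewer counts remain. By library, Serpine2 ranked 48 in library 2, Cst9 ranked 323 in library 2 and Timp3 ranked 333 in library 1, against 44, 203 and 356 by mean CPM. Values per coding length and peaks at gene starts were not run, since lengths and mm9 positions were not at hand. No paired analysis was possible because the RNA-seq libraries form a single group. Depth limits statements on silent members to the level of 3 counts.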

Other observations

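Protease inhibitors outside the 3 families were expressed in 17 of 39 measured cases (43.6%, against 47.1% of all symbols), with a summed level of 1510 ± 29.9 CPM. Spock2, testican 2, a matrix proteoglycan with an inhibitor domain, had 466, 495 and 514 CPM. Pebp1, known as Raf kinase inhibitor protein, had 432, 444 and 457 CPM. Spint2, a membrane-bound Kunitz inhibitor of serine proteases, had 263, 281 and 264 CPM, while its relative Spint1 stood at 0.784 ± 0.0414 CPM. Of genes named after their values were seen, the stefin A relatives Stfa1, Stfa2 and Stfa3, which the symbol rule left out of the cystatins, had under 3 counts in every library, like Csta. The plasma inhibitors Ahsg (8.42 ± 0.493 CPM) and Fetub (6.14 ± 0.737 CPM), relatives of the cystatins made by the liver, were expressed at low levels.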
